A study of Mus musculus with 12 samples.

Results

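Histone genes were followed in poly(A)-selected RNA of B16-F10 cells, a mouse melanoma line, as a set of 82 of the 23022 listed genes. A row belonged to the set when its gene name began with *Hist*, *H2af*, *H3f3* or *H1f*. The rule used names alone, but the set was chosen with earlier results of these data known. They comprised 65 cluster histone genes, 10 replacement histone genes, 6 genes known from testis or egg, and *H2afy3*, which was put in no class. All cells expressed Cas9 and carried a lentiviral pair of guide RNAs, either a non-targeting control (NTC, which the sample labels write as no template control) or guides against both *Mbnl1* and *Mbnl2* (double knockout, DKO). Each was left untreated or given IFNγ at 1 ng/mL for 24 hours, in 3 replicates per group and 12 libraries in all. The edited cells were a polyclonal population in which, by the study's blots, the proteins were not fully lost. By DNA sequencing of cells given single guides, the study reports indels in most alleles. The labels do not say whether replicates were separate cultures, so the p-values measure the spread between these samples, which may be technical.

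Cluster histone genes lie in tandem on a few chromosomes, have mostly no introns, and supply new nucleosomes while DNA is copied. Their mRNAs are known to end at a stem-loop without a poly(A) tail, to be bound there by SLBP, and to decay when replication stops. Replacement histones are made from scattered, mostly intron-containing genes at all times of the cell cycle, end in an ordinary poly(A) tail, and take the place of cluster histones in nucleosomes. Poly(A) selection therefore retains replacement mRNAs, and of cluster mRNAs it retains only molecules that carry a tail. A change in cluster histone signal here can be a change in the amount of RNA or in the share of it that is tailed, and these cannot be told apart in these libraries.

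Values are TPM, each gene's share of the library per transcript length, and they keep no read depth. The listed genes summed to 805782 to 874612 TPM per library. NTC libraries held 55.6 to 63.9 TPM of *Mbnl1* and 99.2 to 107 TPM of *Mbnl2*, and DKO libraries 41.1 to 47.5 TPM and 83.9 to 98.0 TPM, so RNA of both targets was still present and every NTC library lay above every DKO library. Melanocyte genes were high, with *Tyrp1* at 3830 to 6780 TPM, and 9 of 10 were called lower in DKO in each genotype comparison. Over all tested genes 19.4% were called lower untreated and 23.9% with IFNγ. Of 16 markers of immune, endothelial, epithelial and fibroblast cells, 10 were at 0 in every library, *Ptprc*, *Cd3e*, *Epcam* and *Cdh5* among them, and the 16 together reached 2.03 to 2.34 TPM in untreated NTC, 2.98 to 3.26 TPM in untreated DKO, 1.74 to 3.33 TPM in NTC with IFNγ and 2.65 to 3.02 TPM in DKO with IFNγ. The fibroblast gene *Col1a1*, the single one of them tested, went from 0.571 to 0.714 TPM in untreated NTC to 1.15 to 1.17 TPM in untreated DKO and was called higher in DKO in both genotype comparisons. The part of these markers in the results below was not tested.

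Replacement histones far exceeded cluster histones on the TPM scale. The 10 replacement genes had a median level of 117 TPM (range 0.139 to 985.9 TPM, means over 12 libraries), and the 65 cluster genes a median of 0.633 TPM (0 to 20.51 TPM). The order among replacement genes was *H3f3a* (986 TPM) and *H3f3b* (722 TPM), which encode H3.3, then *H1f0* (532 TPM), the linker histone H1.0, and *H2afz* (496 TPM), one of the H2A.Z genes. The last pair overlapped in untreated NTC libraries, at 633.9 to 657.3 TPM and 585.4 to 650.4 TPM. *H2afy*, which encodes macroH2A1, averaged 128 TPM and *H2afv*, the other H2A.Z gene, 106 TPM, and in untreated NTC libraries this pair did not differ beyond its spread. Lower down came *H2afj* (45.3 TPM), whose product H2A.J is known to build up in senescent cells, *H2afx* (14.0 TPM), whose product is phosphorylated at DNA breaks, *H1fx* (1.61 TPM) and *H2afy2* (0.139 TPM), which encodes macroH2A2.

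Only 4 of the 65 cluster genes averaged 10 TPM or more. These were *Hist1h4i* (20.5 TPM), *Hist1h2bc* (19.1 TPM), *Hist1h1c* (10.7 TPM) and *Hist3h2a* (7.567 to 14.68 TPM over the libraries), an H4, an H2B, an H1 and an H2A gene, and they gave 48.0 to 57.9% of the summed cluster signal of a library. *Hist1h2ag*, *Hist2h2be* and *Hist1h2bj* followed at 3.74, 3.40 and 3.03 TPM. *Hist2h2bb*, *Hist1h3c* and *Hist1h2bh* complete the 10 highest and were among 10 genes between 1 and 3 TPM. The other 48 were under 1 TPM, 2 of them listed at 0 in all libraries. The 6 testis or egg genes stayed under 1 TPM on average and *H2afy3* averaged 0.202 TPM. For testing, a gene needed at least 1 TPM in at least 3 libraries, which 29 cluster genes and 9 replacement genes reached (all but *H2afy2*).

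**Figure D1:**
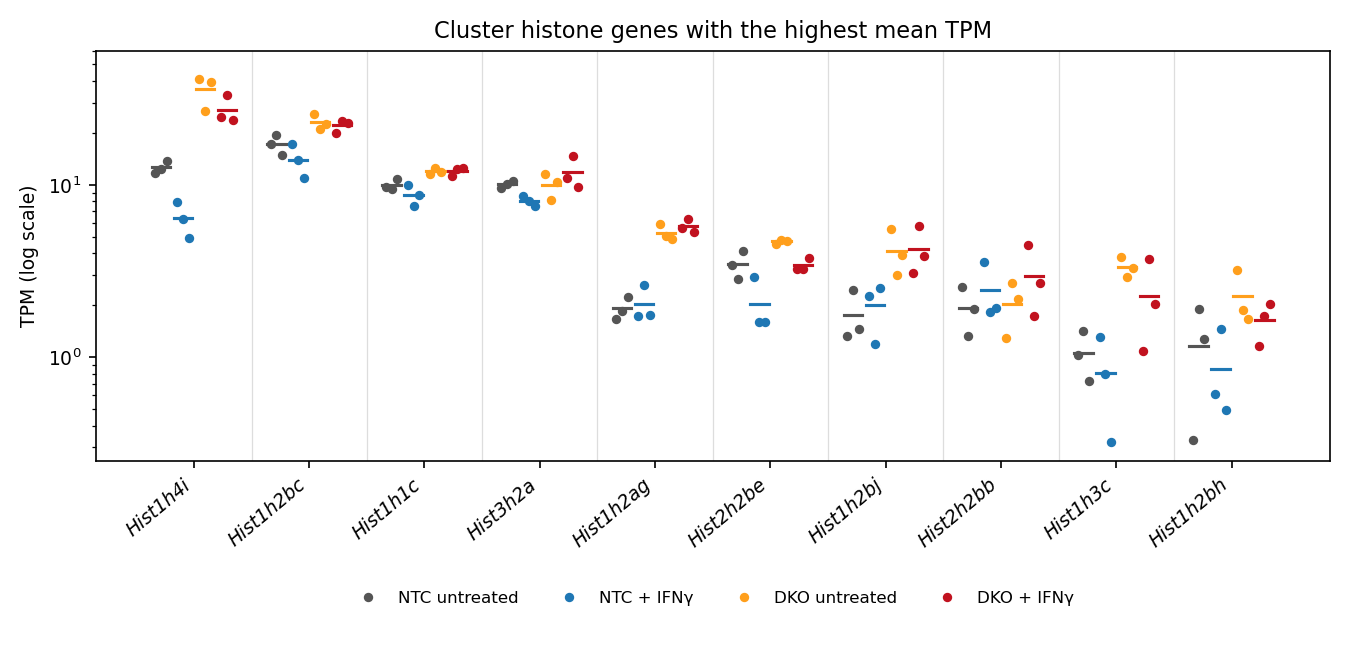
TPM (log axis) of the 10 cluster histone genes with the highest mean, one point per library in 4 groups of 3, with a bar at each group mean. *Hist1h4i* and *Hist1h2ag* show all 6 DKO points above all 6 NTC points, while *Hist2h2bb* shows overlapping groups.

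The stem-loop that ends cluster histone mRNAs was searched for in annotated transcripts (GENCODE M21, GRCm38) downstream of the stop codon. It was found in 40 of the 65 cluster genes, in *H2afx* alone among replacement genes, and in 1 testis gene. Searched at any position of a transcript, it was found in 0.191% of all annotated genes. The loop began 21 to 58 bases past the stop codon (median 31.5). Of the other 25 cluster genes, 7 were not in the annotation under their identifier and 18 had a model without a loop, 11 of those ending within 40 bases of the stop. The windows of 8 genes described below are shown, 5′ to 3′ on the gene's strand, with the stem-loop in capitals, since this element sets apart the histone mRNAs that need no tail.

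Hist1h4i, chr13:22040961-22040986, minus strand: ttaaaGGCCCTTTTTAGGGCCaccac
Hist1h4d, chr13:23581945-23581970, plus strand: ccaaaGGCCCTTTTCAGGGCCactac
Hist1h2ag, chr13:22042478-22042503, minus strand: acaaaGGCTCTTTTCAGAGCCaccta
Hist1h2bj, chr13:22043633-22043658, plus strand: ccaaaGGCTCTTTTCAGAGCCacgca
Hist1h1c, chr13:23739507-23739532, plus strand: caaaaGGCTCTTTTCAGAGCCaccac
Hist3h2a, chr11:58955167-58955192, plus strand: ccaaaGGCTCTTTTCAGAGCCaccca
Hist1h3c, chr13:23745042-23745067, minus strand: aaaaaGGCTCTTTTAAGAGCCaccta
H2afx, chr9:44335235-44335260, plus strand: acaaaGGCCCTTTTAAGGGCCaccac

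The form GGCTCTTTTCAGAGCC was the most frequent, in 23 cluster genes of the H1, H2A, H2B and H3 families, and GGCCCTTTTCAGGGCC stood in 7 genes, all of them H4. *Hist1h4i* carried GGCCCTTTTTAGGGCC, which it shared with 1 other H4 gene. Several of the highest cluster genes had annotated transcripts that run on past the loop: 840 bases in *Hist1h1c*, 1643 in *Hist3h2a*, and 330 in *Hist1h4i*. That of the replacement gene *H2afx* ran on for 822 bases. The 19 cluster genes whose model continues for at least 100 bases past the loop had a median level of 0.891 TPM with 3 genes at 3 TPM or more, and the 21 whose model stops sooner a median of 0.633 TPM with 2. *Hist1h2ag* and *Hist1h2bj*, at 3.74 and 3.03 TPM, belong to the latter, with models ending 23 bases past the loop. The hexamer AATAAA, a poly(A) signal, lay within the last 50 bases of a model in 14 of 65 cluster genes, 9 of 10 replacement genes and 36.5% of all annotated genes.

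Cluster histone genes are close copies of each other, and this limits which copy a read is assigned to. Of the 50-base stretches in a cluster gene's transcripts, a median of 57.5% also occurred in another annotated gene (58 genes), against 9.05% for replacement genes. The share was 8.5% for *Hist1h1c*, 10.2% for *Hist1h4d*, 28.9% for *Hist1h4i*, 30.6% for *Hist1h2bc*, 31.5% for *Hist3h2a* and 0% for *Hist2h2be*, but 59.4% for *Hist1h2bj*, 73.4% for *Hist1h3e*, 75.9% for *Hist1h4b* and 78.9% for *Hist1h2ag*. Values of the last 4 are uncertain between copies. So, in part, are those of *Hist1h3c* (47.0%) and *Hist1h2ae* (43.2%), and the share of *Hist1h3g*, which the annotation lacks, is unknown. *H2afz* shared 69.6%. The libraries do not mark strand, and several members overlap other genes. *Hist1h4b*, *H3f3a*, *H1f0*, *H1fx* and *H2afy* overlap annotated antisense or opposite-strand noncoding genes. Annotated microRNA genes lie opposite *Hist1h2ag*, *Hist1h2ae*, *Hist3h2a*, *H2afj* and *H2afx*, among others. On the same strand *Hist3h2a* overlaps *Trim17*. Reads in these overlaps are not separable from those of the partner. The identifier of *Hist2h2bb* belongs to a noncoding RNA in GENCODE M21.

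Summed over all 65 members, the cluster histone signal was higher in DKO than in NTC cells. Untreated NTC libraries summed to 89.53, 93.49 and 90.88 TPM, untreated DKO libraries to 161.1, 125.4 and 145.6 TPM. With IFNγ the sums were 82.0, 74.71 and 62.63 TPM for NTC, and 119.7, 145.3 and 120.1 TPM for DKO. All 6 DKO libraries lay above all 6 NTC libraries. The differences of the log2 sums were 0.66 untreated and 0.81 with IFNγ, and 0.46 untreated without *Hist1h4i*. Replacement histones did not move this way: their sums averaged 3335 TPM (SD 37.9, n = 3) in untreated NTC, 3110 TPM (SD 94.0) in untreated DKO, 2835 TPM (SD 150) in NTC with IFNγ and 2848 TPM (SD 139) in DKO with IFNγ. Cluster genes made up 2.66, 2.51, 4.42 and 4.31% of the histone signal of both classes in NTC untreated, NTC with IFNγ, DKO untreated and DKO with IFNγ, respectively.

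**Figure D2:**
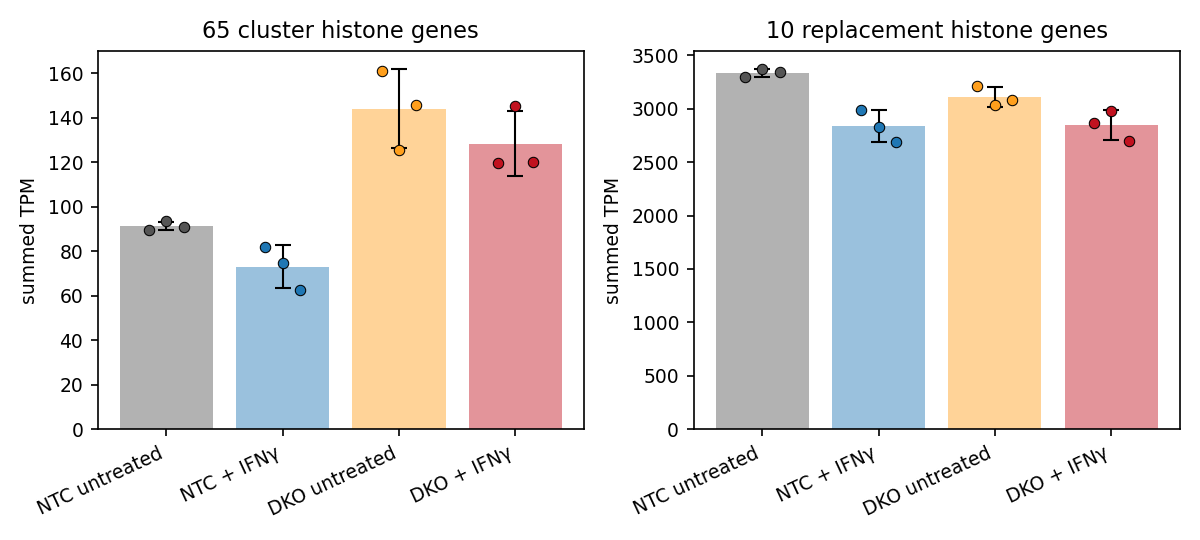
Summed TPM of the 65 cluster (left) and 10 replacement histone genes (right) in the 4 groups, with bars at the mean, error bars of 1 SD and a point per library (n = 3). The DKO points of the cluster panel lie at 119.7 TPM or more and the NTC points at 93.49 TPM or less.

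The first question was how histone genes differed between DKO and NTC in untreated cells. The genotypes are separately transduced and selected populations. Any other difference between these populations cannot be told apart from the loss of *Mbnl1* and *Mbnl2*, here and with IFNγ. Among 29 tested cluster genes, 9 had higher and 0 had lower values in DKO by the adjusted test. Across all tested genes, 36.4% were called in this comparison, 17% higher and 19.4% lower, so the 31.0% of cluster genes called is near the share of all genes, and the called ones were all in 1 direction. With libraries scaled to the same total, the split over all genes turned from 1982 higher and 2265 lower to 2655 higher and 1722 lower. The median log2 difference of the 29 was 0.273, against -0.00552 over all tested genes. The DKO and NTC libraries did not overlap in 12 cluster genes, all of them higher in DKO, where 51.6% of all tested genes had such groups, 24.8% higher and 26.8% lower. Of these 29 genes, 11 reached the filter through DKO libraries alone and 1 through NTC libraries alone, which by itself favors higher values in DKO. Among the 8 with at least 1 TPM in every library, 5 were higher and 0 lower. Without any filter, 51 of the 63 cluster genes that had a value were higher in mean TPM in untreated DKO (81.0%), and 49.6% of all genes with a value were. Of the 63, 34 lay under the filter, 27 of them higher (79.4%, against 51.2% of all such genes). Some of these 34 differed very little, such as *Hist1h4m* at 0.316 TPM in NTC and 0.333 TPM in DKO. Close copies among the 63 can share reads, so their directions are not independent.

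*Hist1h4i*, one of the many genes for the invariant histone H4, had the largest difference on the log2(TPM + 1) scale; in the ratio of mean TPM, lower genes such as *Hist1h4d* (4.21) and *Hist1h2ae* (3.61) were above it. The untreated NTC libraries measured 11.77, 12.38 and 13.82 TPM, and those of DKO 41.26, 26.73 and 39.32 TPM, without overlap. Its mean rose 2.83-fold, a log2(TPM + 1) difference of 1.41 (SE 0.173, limma adjusted p = 3.56e-05). *Hist1h2ag*, an H2A gene, went from 1.672, 1.853 and 2.234 TPM to 5.896, 5.067 and 4.855 TPM, 2.75-fold higher (log2 difference 1.10, SE 0.124, limma adjusted p = 1.67e-05). The H2B gene next to it, *Hist1h2bj*, went from 1.324, 2.461 and 1.446 TPM to 5.528, 3.013 and 3.905 TPM (log2 difference 0.90, limma adjusted p = 0.00881). None of these groups overlapped.

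Among lower genes, the H3 gene *Hist1h3c* measured 1.024, 1.419 and 0.7231 TPM without the knockout and 3.823, 2.906 and 3.3 TPM with it (log2 difference 1.09, limma adjusted p = 0.00519). The H4 gene *Hist1h4d* was listed at 0, 0.8756 and 0.5747 TPM for NTC, against 1.732, 1.847 and 2.522 TPM for DKO (log2 difference 1.07, limma adjusted p = 0.00202). *Hist1h2ae* (0.92), an H2A gene, and *Hist1h3g* (0.59), an H3 gene, were also higher. Of these, *Hist1h4d*, *Hist1h2ae* and *Hist1h3g* reached the filter through DKO libraries alone, which favors higher values in DKO. The more abundant *Hist1h2bc* rose from 17.21 to 23.16 TPM in the mean (log2 difference 0.41, limma adjusted p = 0.0294) and *Hist1h1c*, which encodes the linker histone H1.2, from 9.986 to 11.99 TPM (0.24, limma adjusted p = 0.0428). The calls of *Hist1h2ae*, *Hist1h3g*, *Hist1h2bc* and *Hist1h1c* were each lost on leaving out 1 of 4 or more libraries in turn, and the cluster count fell to 5 without NTC untreated replicate 1 or without DKO untreated replicate 3. *Hist3h2a* had overlapping groups in untreated cells, at 9.609, 10.12 and 10.57 TPM for NTC, against 11.53, 8.188 and 10.37 TPM for DKO.

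In untreated cells 2 of the 9 tested replacement genes had higher and 1 had lower values in DKO. These are 33.3% of the 9, near the 36.4% of all tested genes called, 17% higher and 19.4% lower. *H1fx*, the gene of linker histone H1.10, went from 0.9956, 0.7466 and 0.9919 TPM to 3.339, 2.762 and 2.884 TPM, 3.29-fold higher (log2 difference 1.06, SE 0.128, limma adjusted p = 3.03e-05). It was under 1 TPM in every NTC library and reached the filter through DKO libraries alone, which favors a higher value in DKO. *H2afy* rose from 118.1 to 138.3 TPM in the mean, a log2 difference of 0.23 (limma adjusted p = 0.0047). *H1f0*, which accumulates in cells that have left the cycle, went the other way. NTC libraries held 657.3, 633.9 and 653.5 TPM of it, DKO libraries 537.1, 494.0 and 498.0 TPM (log2 difference -0.35, SE 0.0432, limma adjusted p = 4.07e-05), with no overlap. *H3f3a* was at 994.5 and 1004 TPM in the means of NTC and DKO (log2 difference 0.01, SE 0.0302).

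With IFNγ, 11 of 29 cluster genes were higher in DKO than in NTC and 0 lower. Over all tested genes 43.3% were called, 19.5% higher and 23.9% lower, and the cluster share was 37.9%. Scaling to the same total turned the split over all genes from 2271 higher and 2782 lower to 3283 higher and 1746 lower. The median log2 difference was 0.407, against -0.0127 over all tested genes. Groups did not overlap in 11 cluster genes, all higher, where 49.9% of all tested genes had such groups, 22.7% higher and 27.2% lower. Among the 8 genes with at least 1 TPM everywhere, 7 were higher. Without the filter, 52 of 63 cluster genes with a value were higher in mean TPM in DKO (82.5%), against 48.5% of all genes with a value. Here too the directions of close copies are not independent, and 34 of the 63 lie under the filter. The comparisons untreated and with IFNγ rest on different libraries, and 7 cluster genes were called in both and 13 in either.

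*Hist1h4i* again had the largest difference on the log2(TPM + 1) scale, with 7.908, 6.371 and 4.934 TPM for NTC against 24.68, 33.29 and 23.62 TPM for DKO. This is a 4.25-fold difference of the means (log2 1.93, SE 0.173, limma adjusted p = 2.24e-06). *Hist1h2ag* had 1.738, 2.621 and 1.749 TPM against 5.625, 6.29 and 5.29 TPM (log2 1.16, limma adjusted p = 9.49e-06). *Hist1h2bc* (0.64, limma adjusted p = 0.00195), *Hist1h1c* (0.43, limma adjusted p = 0.00147) and *Hist1h2bj* (0.80, limma adjusted p = 0.0142) were higher as they were in untreated cells.

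A set of 4 genes was called with IFNγ and not without it: *Hist1h3e* (0.88, limma adjusted p = 0.00106, with a ratio of mean TPM of 5.65, above that of *Hist1h4i*), *Hist1h4b* (0.83), *Hist2h2be* (0.56) and *Hist3h2a* (0.48). Of these, *Hist1h3e* and *Hist1h4b* reached the filter through DKO libraries alone, which favors higher values in DKO. *Hist3h2a* had 8.616, 8.083 and 7.567 TPM for NTC against 10.95, 14.68 and 9.768 TPM for DKO. That these genes were called in 1 comparison is not a difference between the comparisons, since no histone gene passed the test of that difference. The call of *Hist1h3c* (0.81) came with overlapping groups, at 0.3232 to 1.313 TPM against 1.083 to 3.708 TPM. Leaving out single libraries ended the calls of *Hist1h2bj*, *Hist1h3c*, *Hist1h3g* and *Hist1h4b*.

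Among replacement genes 3 were higher and 1 lower with IFNγ. These are 44.4% of those tested, near the 43.3% of all tested genes called, 19.5% higher and 23.9% lower. *H2afj* had 26.82, 20.71 and 11.07 TPM for NTC, against 44.18, 59.38 and 41.77 TPM for DKO (2.48-fold, log2 1.33, SE 0.289, limma adjusted p = 0.00237). In untreated cells its groups overlapped and it was not called (log2 0.42, limma adjusted p = 0.281). The same treated NTC libraries enter the comparison of IFNγ in NTC below, so the results of both comparisons are not independent. *H1fx* was 3.1-fold higher (log2 0.86, limma adjusted p = 0.000154), *H2afy* 0.25 higher and *H1f0* lower by a log2 difference of -0.27 (limma adjusted p = 0.000274). When a trend with GC content and length was removed from each library, the difference of *H1fx* became 0.42 and was still called. *H1fx* had reached the filter through DKO libraries alone. *H2afx*, at 7.848 and 13.88 TPM in the group means, had overlapping groups (limma adjusted p = 0.0687).

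**Figure D3:**
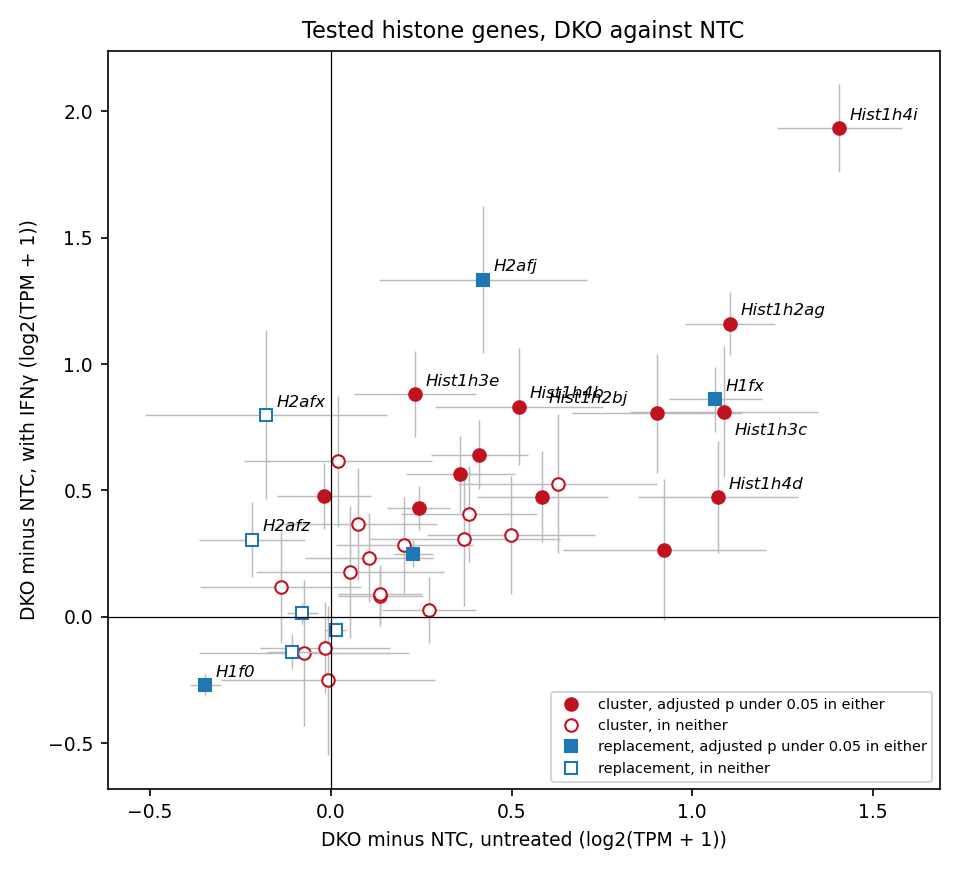
Difference of DKO minus NTC in log2(TPM + 1) for the 29 cluster genes (circles) and 9 replacement genes (squares) tested, in untreated cells (x axis) and with IFNγ (y axis), with bars of 1 SE; filled symbols passed an adjusted p of 0.05 in either comparison. *Hist1h4i* lies furthest out at 1.41 and 1.93, and *H1f0* is the only filled symbol below 0 on both axes.

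**Figure D4:**
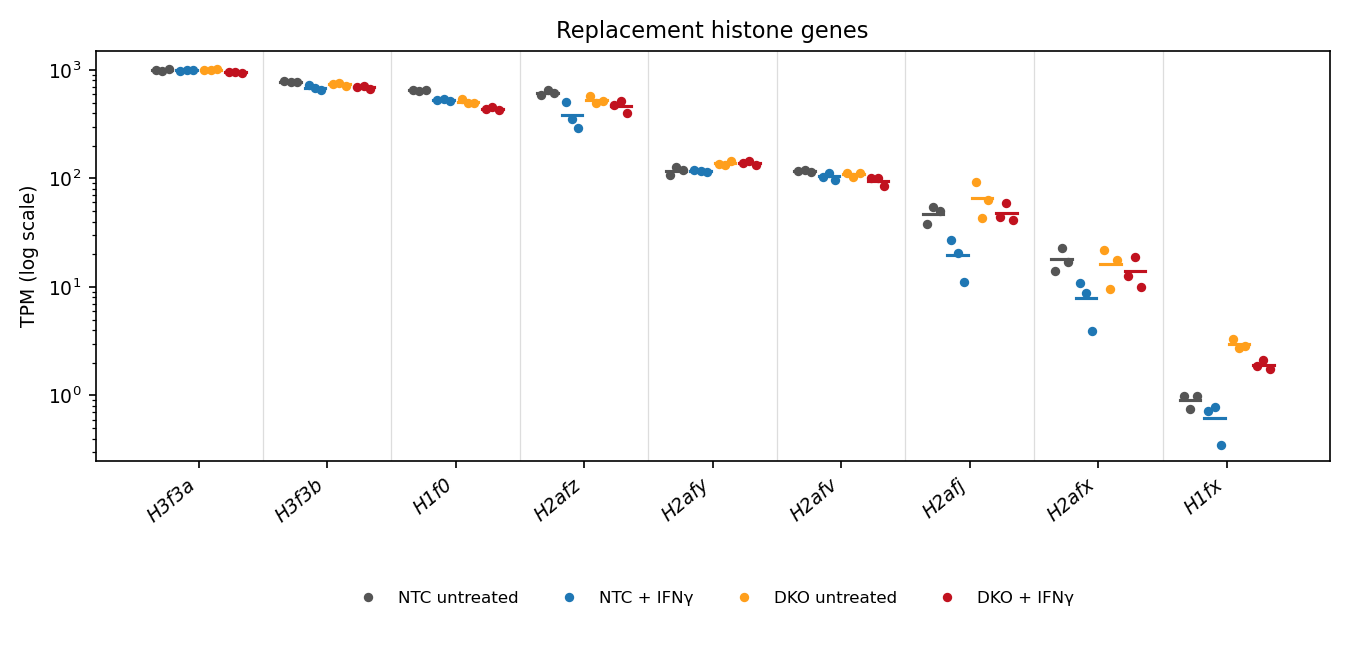
TPM (log axis) of the 9 tested replacement histone genes, one point per library in 4 groups of 3, with bars at the group means. *H3f3a* stays between 944.7 and 1019 TPM, while *H2afj* and *H2afx* are lowest in NTC libraries with IFNγ.

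In NTC cells some histone genes were called lower with IFNγ, mostly replacement genes. Of 29 cluster genes 2 were lower and 0 higher (6.9% called), and of 9 replacement genes 5 were lower and 0 higher (55.6%). Over all tested genes 12.1% were called, 7.31% higher and 4.78% lower, so the cluster share was below that of all genes. Scaled to the same total, the split over all genes went from 853 higher and 558 lower to 525 higher and 639 lower. Groups did not overlap in 7 cluster genes, 1 higher and 6 lower, and in 6 replacement genes, all lower, where 36.6% of all genes had such groups, 21.8% higher and 14.7% lower. *H2afj* fell from 37.61, 54.81 and 49.69 TPM to 26.82, 20.71 and 11.07 TPM (log2 difference -1.30, limma adjusted p = 0.0167). *H2afx* had 14.06, 23.0 and 16.91 TPM untreated and 10.84, 8.782 and 3.926 TPM with IFNγ (-1.17, limma adjusted p = 0.0405). *H2afz* went from 585.4, 650.4 and 606.0 TPM to 501.6, 350.0 and 292.6 TPM (-0.72, limma adjusted p = 0.0124). *H1f0* (-0.29, limma adjusted p = 0.00164) and *H3f3b* (-0.18) were lower by less, and *H3f3a* was at 994.5 and 989.5 TPM in the means.

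*Hist1h4i* fell from a mean of 12.66 to 6.404 TPM (log2 difference -0.90, limma adjusted p = 0.00978) and *Hist2h2be*, with overlapping groups, from 3.47 to 2.035 TPM (-0.58, limma adjusted p = 0.029). The 3 treated NTC libraries were spread widely in these genes, with replicate 3 lowest for *H2afj*, *H2afx*, *H2afz* and *Hist1h4i*. The same 3 libraries differed in their GC-rich genes: the tenth of tested genes with the highest GC content lay at a median log2 deviation of -0.075, -0.159 and -0.211 in replicates 1, 2 and 3, against -0.005, 0.092 and 0.058 in untreated NTC. With a trend on GC content and length removed from each library, *H2afj* kept its call (-1.24) and *H2afx*, whose transcripts are 62.3% GC, lost it (-0.88). Leaving out single NTC libraries brought the number of called histone genes from 7 down to 3 (without NTC IFNγ replicate 2 or 3) or 4 (without NTC untreated replicate 2 or 3).

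**Figure D5:**
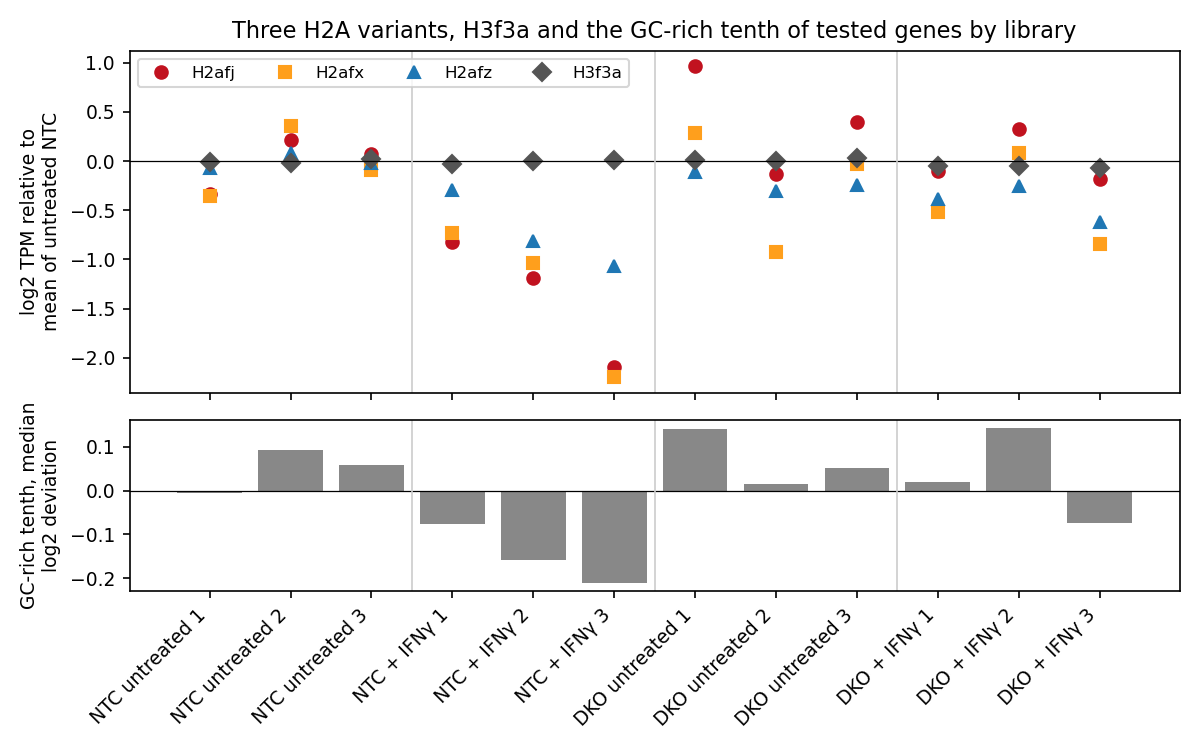
Top: log2 TPM of *H2afj*, *H2afx*, *H2afz* and *H3f3a* in each of the 12 libraries relative to the mean of untreated NTC. Bottom: median log2 deviation of the tenth of tested genes with the highest GC content in the same library, lowest at -0.211 in NTC IFNγ replicate 3, where *H2afj* and *H2afx* were lowest too.

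In DKO cells IFNγ was followed by fewer calls: 0 of 29 cluster genes and 1 of 9 replacement genes, where 0.78% of all tested genes were called, 0.677% higher and 0.103% lower. Groups did not overlap in 2 cluster and 4 replacement genes, all lower, where 14.7% of all genes had such groups, 9.46% higher and 5.29% lower. The gene was *H1f0* (509.7 to 439.3 TPM, log2 difference -0.21, limma adjusted p = 0.0345), and its call was lost in 7 of 12 fits that left out 1 library and in the fit of these 6 libraries alone. At an unadjusted p under 0.05, limma gave 5 cluster genes and 4 replacement genes, and 9.59% of all tested genes. *Hist1h4i* averaged 35.77 TPM untreated and 27.2 TPM with IFNγ, with overlapping groups (26.73 to 41.26 TPM and 23.62 to 33.29 TPM). Whether the response differed between NTC and DKO was tested directly: limma called 0 of 29 cluster and 0 of 9 replacement genes, where 0.0343% of all genes were called. At an unadjusted p under 0.05 there were 2 and 2, and 11.5% of all genes. For *H2afz* the difference was 0.52 (SE 0.207, adjusted p = 0.416) and for *H2afj* 0.91 (SE 0.409, adjusted p = 0.428).

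Cluster genes were grouped by position wherever neighbors lay within 100000 bases (GRCm38). In chr13:22035164-22043676, 3 of 4 tested genes were higher in both DKO comparisons, and these were *Hist1h4i*, *Hist1h2ag* and *Hist1h2bj*. In chr13:23531050-23764406, which holds 24 members, 5 of 14 tested genes were higher untreated and 5 with IFNγ. In chr13:21715763-21837530, 0 of 2 tested genes were higher in either, and on chromosome 3, 0 of 6 untreated and 1 of 6 with IFNγ. Of all tested genes 17% were called higher untreated and 19.5% with IFNγ, and the small numbers per stretch allow no comparison between stretches. Read assignment between copies in the same stretch bears on these counts. Summed by family, the H4 genes went from 20.8 TPM (SD 1.8) to 47.6 TPM (SD 9.0) in untreated cells, and the 12 other than *Hist1h4i* from 8.14 TPM (SD 0.87) to 11.8 TPM (SD 1.6). H2B went from 32.7 to 45.3 TPM, H2A from 18.5 to 25.9 TPM, H3 from 7.46 to 11.0 TPM and H1 from 11.9 to 14.2 TPM.

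*Hist1h2ag* and *Hist1h2bj* face away from each other, and the bases between their starts lie upstream of both. That region is printed because both genes were higher in DKO in both comparisons, with CCAAT on either strand (written ATTGG on the reverse) in capitals. It is taken from RefSeq on GRCm38.p6 at chr13:22042948-22043197, plus strand, the 250 bases before the start of *Hist1h2bj*.

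Hist1h2bj upstream: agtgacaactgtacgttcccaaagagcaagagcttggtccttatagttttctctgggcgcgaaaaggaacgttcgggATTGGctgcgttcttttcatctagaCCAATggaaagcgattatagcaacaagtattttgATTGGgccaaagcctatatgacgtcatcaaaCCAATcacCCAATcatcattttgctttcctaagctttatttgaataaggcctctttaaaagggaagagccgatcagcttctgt

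The 250 bases hold 5 copies of CCAAT. Of the 58 cluster genes with a RefSeq promoter, 47 (81.0%) held at least 1 CCAAT on either strand in the 250 bases before the start and 40 (69.0%) at least 2, against 34.5% and 10.5% of all 27025 promoters and 5 of 9 replacement promoters. TATAA in the last 50 of these bases stood in 24 cluster promoters (41.4%) and 5.3% of all. The promoter of *Hist1h4i* held no CCAAT and 1 TATAA. A match is a description of the sequence and says nothing about a factor.

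Genes that process histone mRNA and deposit histones were called about as often as other genes or less. Of 21 genes for histone pre-mRNA processing and decay, 4 were higher and 2 lower in untreated DKO, where 36.4% of all tested genes were called, and 4 were higher and 4 lower with IFNγ, where 43.3% were. *Slbp*, which binds the stem-loop, differed by 0.24 untreated (adjusted p = 0.0144), *Srrt* (Ars2), a partner of the cap-binding complex, by 0.50 (adjusted p = 0.000246), and *Lsm1*, part of a ring that marks histone mRNA for decay, by 0.34 (adjusted p = 0.00178, all limma). The medians of this list were 0.022 and 0.008. With IFNγ the largest called differences were in *Srrt* (0.50), *Zcchc6* (-0.30), a terminal uridylyltransferase, and *Zfp473* (0.27), which acts in histone 3′ end cleavage. Of 29 tested rows for chaperones and deposition factors, 4 were higher and 7 lower untreated and 4 higher and 9 lower with IFNγ, against the same shares of all genes. *Ssrp1*, a FACT subunit, was lower by a log2 difference of -0.44 (limma adjusted p = 1.78e-06), and *Ipo4*, an importin that carries H3 and H4, and *Ino80*, a remodeler, were lower as well (-0.43 and -0.37).

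Among 32 genes of S phase and replication, 15 were higher and 2 lower in untreated DKO and 15 higher and 3 lower with IFNγ, with medians of 0.138 and 0.119. Over all tested genes 36.4% were called untreated (17% higher) and 43.3% with IFNγ (19.5% higher), and 15 S-phase genes untreated and 14 with IFNγ did not pass. *Ccne1*, a cyclin that starts S phase and drives histone transcription, rose from 26.99 to 51.13 TPM in the mean (log2 0.90, limma adjusted p = 5.05e-07). *Cdc6* (0.45) and *Ccne2* (0.49) were higher as well. Of 18 genes of G2 and mitosis, 7 were higher and 4 lower untreated, and 4 higher and 7 lower with IFNγ, with medians of 0.042 and -0.026. The part of the cell cycle in the histone difference was not tested. With IFNγ in NTC, 2 S-phase genes were higher and 2 lower, and of the mitosis genes 7 were higher and 0 lower. Over all tested genes 12.1% were called in that comparison, 7.31% higher and 4.78% lower.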

How the data were processed

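RNA-seq of B16-F10 Cas9 cells was used, 12 libraries in 4 groups of 3, grouped by the sample labels. Per the study's methods, libraries were poly(A)-selected and unstranded with paired reads of 50 bp. The submitters' processing notes name RSEM 1.2.4, Bowtie and TopHat on a merged mouse annotation. The values that the authors deposited are in TPM rather than counts, and the depth behind them is unknown.

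The design named limma for this unit. Of the listed genes, the 11663 that reached 1 TPM in 3 or more libraries were fitted as log2(TPM + 1) with limma 3.58.1 in R 4.3.3, with 1 mean per group and an intensity trend. The pseudocount of 1 makes differences of low genes smaller than their TPM ratios. Benjamini-Hochberg adjusted p-values under 0.05 over all tested genes were called, in 5 comparisons. The fit was tested on simulated data. With 3 against 3 libraries an exact permutation test cannot go below 0.1, so none is quoted.

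Coordinates, GC content and transcripts came from GENCODE M21, where 74 of the 82 members were found by identifier. Promoters came from RefSeq, matched by identifier or older symbol. Tables and figures used Python 3.11.15, pandas 2.3.3, numpy 2.4.6, scipy 1.17.1 and matplotlib 3.10.9.

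The members and all gene lists were chosen with earlier results of these data known. Genes named are every tested replacement histone, every cluster histone called in a comparison, the 10 cluster histones with the highest mean, the *Mbnl* pair, and up to 3 called genes per supporting list and comparison with the largest difference. A list of 18 RNAs without a poly(A) tail had 0 genes in the table. Markers and levels at 0 are named as checks. Alternatives were a pseudocount of 0.1, no filter, a replicate block, other scalings, a GC content and length trend removed, 1 library left out, and only the 6 libraries compared. Splicing was not analysed here.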

Additional observations from a re-analysis of the deposited data

How the results depend on the processing

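Of 35 calls of single histone genes, 21 held under every alternative run, 14 were lost under at least 1, and 0 reversed. In DKO against NTC, 8 of 12 calls held untreated and 11 of 15 with IFNγ. In IFNγ in NTC, 2 of 7 held (*Hist1h4i* and *H1f0*), and in IFNγ in DKO, 0 of 1. With 1 library left out, histone genes called numbered 8 to 13 in untreated DKO against NTC (cluster 5 to 10, replacement 3 in every fit) and 12 to 16 with IFNγ (cluster 8 to 12, replacement 4 to 6). For IFNγ in NTC they numbered 3 to 9 (cluster 1 to 3, replacement 2 to 6), with 1 cluster gene without NTC untreated replicate 1 or NTC IFNγ replicate 2 or 3, and 2 replacement genes without replicate 2 or 3 of either NTC group. For IFNγ in DKO they numbered 0 to 1 (replacement 0 to 1). That single call, *H1f0*, went to 0 with no filter, with the replicate block, scaled to the same total, and with only the 6 libraries compared. Libraries of the same replicate number did not deviate together (correlations -0.179 to 0.119). This gives no sign of pairing by number, but it cannot exclude that such samples were handled together. Under the replicate block, the called cluster genes in untreated DKO against NTC numbered 8 in place of 9. The log2 difference of the cluster sums in untreated cells was 0.461 without the highest member in place of 0.658. That of the replacement sums was -0.343 without the highest member in place of -0.235 for IFNγ in NTC, and -0.05 scaled to the same total and -0.152 without the highest member in place of -0.101 for DKO against NTC untreated.

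Calls lost on leaving out a library, with the range of the log2 difference over the 12 such fits, were in untreated DKO against NTC *Hist1h1c* (0.208 to 0.294), *Hist1h2ae* (0.652 to 1.25), *Hist1h2bc* (0.315 to 0.502) and *Hist1h3g* (0.457 to 0.761), each without NTC untreated replicate 1 or DKO untreated replicate 3, among others. With IFNγ they were *Hist1h2bj* (0.593 to 0.969) and *Hist1h3c* (0.508 to 1.096), each without DKO IFNγ replicate 2 or 1 NTC library, *Hist1h4b* (0.617 to 0.98) without DKO IFNγ replicate 1, and *Hist1h3g* (0.328 to 0.596) in 8 of the fits. For IFNγ in NTC they were *H2afj* (-1.562 to -0.96), *H2afx* (-1.425 to -0.792), *H2afz* (-0.936 to -0.549, without NTC IFNγ replicate 2), *H3f3b* (-0.221 to -0.153) and *Hist2h2be* (-0.776 to -0.471). The cause was not tested. TPM keep no depth, so the counting error of cluster genes near 1 TPM is unknown, and *Hist1h3g* has no value with the GC content trend removed, since the annotation lacks it.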
